A study of Mus musculus and Bos taurus with 6 samples.

Results

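The miRNA of lactating mammary glands were compared between 2 bovine and 2 mouse small RNA libraries, which are 4 of the 6 libraries of the series. Each bovine library was made from a pool of mammary biopsies of 2 multiparous Holstein dairy cows at mid-lactation, taken from the upper rear udder, under the diet called low forage (LF), with grass hay and concentrate at a ratio of 46:54. Each mouse library (FVB/N) came from the whole abdominal gland of 1 primiparous mouse on lactation day-12, with the lymph node removed and without co-immunoprecipitation. The 2 libraries of RNA bound to AGO2 were not used here. Bovine RNA was isolated with the Nucleospin miRNA kit and mouse RNA with the RNA NOW kit, and libraries of both species were then prepared at the same time with poly(A) tailing. Species, RNA kit, pooling of animals, sampled region, parity and diet cannot be told apart in this design. Each bovine value is an average over pooled cows from 1 region of the udder, and the mice are of 1 inbred strain.

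Members were matched in 3 ways. Of 1538 bovine and 1737 mouse mature sequences, 208 were the same letter for letter in both species, and 91 of these reached 100 RPM (counts scaled to a library total of 1000000) in at least 1 of the 4 libraries. Pairs that share a stretch of at least 18 bases numbered 343, of which 159 reached 100 RPM. Summing by nucleotides 2 to 7 gave 158 seeds at that level. The 87 hairpins compared had both arms listed in both species and at least 1 arm of identical sequence. Their arms together reached 100 RPM in at least 1 library, and each bovine hairpin was used once. A permutation of 2 libraries against 2 cannot give a two-sided p under 0.333, so p-values are those of edgeR's quasi-likelihood test, or of limma for arms, adjusted by Benjamini-Hochberg over all features of a comparison. They measure the spread between the 2 libraries of a species only. With 1 library left out, its species keeps a single library, and that fit takes the spread from the other species alone. Whether a call held in such a fit, and how many did, carries this limit. A difference was called at an adjusted p under 0.05, and it is given as log2 of bovine over mouse with its standard error (SE).

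A miRNA is cut from a hairpin precursor, whose 5p and 3p arms can each give a mature strand that is loaded into an Argonaute protein. Bases 2 to 8 from its 5′ end, the seed, do most of the pairing with target messengers, so that miRNA with 1 seed form a family with overlapping targets, whereas a miRNA whose 5′ end is shifted by a base reads a different seed. Members of a genomic cluster are often transcribed as 1 primary RNA. In the mammary gland the miR-200 family is known to maintain the epithelial state, and let-7, miR-148a and miR-21 are abundant in lactating tissue and milk.

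The sequences below carry the main contrasts, with the seed in capitals, read 5′ to 3′ as listed in the deposited tables. The first set shows abundant miRNA whose level differed between the species, with the miR-146 and miR-200 seeds that recur in the results, and miR-148a-3p and miR-200c-3p, which lay closer or were not called.
miR-146b-5p, mouse: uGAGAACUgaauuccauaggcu
miR-146b-5p, bovine: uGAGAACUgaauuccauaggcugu
miR-200a-3p, mouse: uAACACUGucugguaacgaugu
miR-141-3p, both: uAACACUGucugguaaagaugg
miR-200c-3p, both: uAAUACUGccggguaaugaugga
miR-429-3p, both: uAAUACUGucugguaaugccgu
miR-181a-5p, mouse: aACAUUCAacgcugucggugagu
miR-21a-5p, mouse: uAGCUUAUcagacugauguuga
miR-26a-5p, both: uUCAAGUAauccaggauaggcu
miR-99a-5p, mouse: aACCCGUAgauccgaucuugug
miR-148a-3p, both: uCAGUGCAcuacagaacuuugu

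The second set shows 3 miRNA whose listed 5′ ends differ by a base, so that the same stretch was filed under another seed in each species.
miR-126a-3p, mouse: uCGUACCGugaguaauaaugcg
miR-126-3p, bovine: cGUACCGUgaguaauaaugcg
miR-29a-3p, mouse: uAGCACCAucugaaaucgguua
miR-29a-3p, bovine: cUAGCACCaucugaaaucgguua
miR-375-3p, mouse: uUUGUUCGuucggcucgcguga
miR-375-3p, bovine: uUUUGUUCguucggcucgcguga

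Counts summed to 9402483 and 10613807 in bovine replicates 1 and 2 and to 9299807 and 8391916 in mouse replicates 1 and 2. The limit that a count of 0 allows, 3 counts, lay between 0.283 and 0.357 RPM and covers counting error only. The bovine libraries lay closer together than the mouse libraries. Over the 159 pairs the median size of the log2 ratio between replicates was 0.18 in bovine and 0.56 in mouse, with 3 and 40 pairs over 2-fold apart, against 1.28 between the species means. Across these miRNA Pearson's r of log2 RPM was 0.995 within bovine, 0.957 within mouse and 0.709 to 0.759 between species, as a description. The log2 ratio of mouse replicate 2 to replicate 1 fell with the GC content of the miRNA (r = -0.49 across the 159 pairs), whereas the species difference did not follow it (r = -0.01).

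The share of reads held in common depended on how strictly ends were matched. Sequences listed identically in both species took 54.6% and 56.1% of the reads in bovine and 43.9% and 38.6% in mouse, so the bovine libraries lay above the mouse libraries. Pairs by a shared stretch took 95.3% in both bovine libraries and 98.7% and 98.8% in mouse, in the opposite order. Among the 159 pairs, 91 were identical, 52 differed at the 3′ end only (31 longer and 21 shorter in bovine, 39 of them by 1 base), 10 differed at the 5′ end and 6 in an inner or terminal base. The first listed base decides the seed, whereas a listed 3′ end, taken from the reference entry, does not change it. The 3′ end can decide which of several close sequences is paired by the longest shared stretch, as for miR-16 below.

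**Figure D1:**
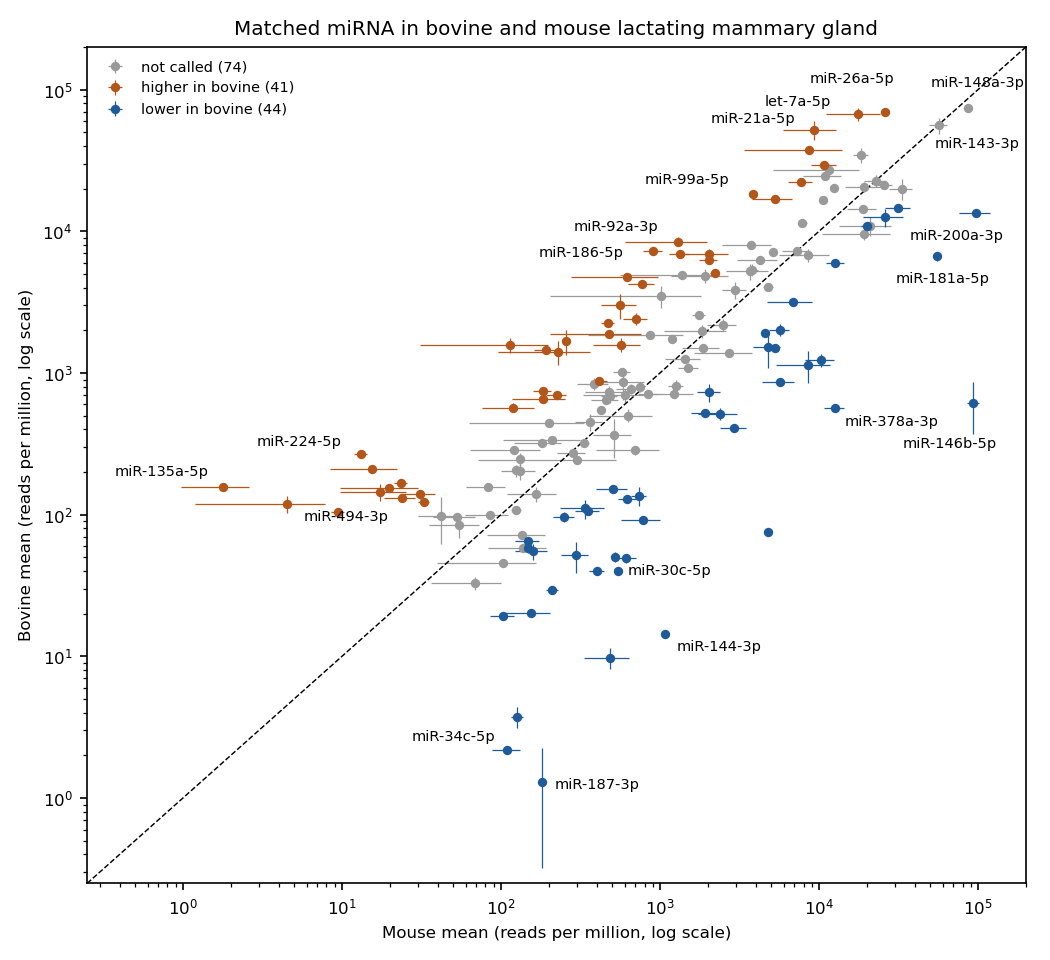
Mean RPM of the 159 matched miRNA in mouse (x, log scale) and bovine (y, log scale), with bars from the lower to the higher of the 2 libraries and the dashed line at equal levels. Orange (41) and blue (44) points are called higher and lower in bovine, with miR-146b-5p far below the line and miR-21a-5p and let-7a-5p above it, whereas miR-143-3p and miR-148a-3p lie beside it.

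Among the 91 identical sequences, 39 were called (42.9%), with 19 higher (20.9%) and 20 lower (22.0%) in bovine, and 24 of them exceeded 4-fold. The libraries of the species did not overlap for 75 (82.4%). Of the 91, 68 reached 100 RPM in both species, 9 in bovine only and 14 in mouse only, and within the 68 there were 13 calls higher and 9 lower. The number of calls moved with the library left out, to 18 and 16 without bovine replicates 1 and 2 and to 64 and 54 without mouse replicates 1 and 2, and 16 of the 39 calls held in all 4 cases.

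Identical sequences lower in bovine included the minor strand of miR-146b, several miR-181 and miR-30 members and miR-429. The epithelial miR-429-3p was at 843 and 893 RPM in bovine and at 4359 and 7012 RPM in mouse (log2 fold change -3.09, SE 0.42, adjusted p = 0.0065). miR-30c-5p, of a family that shares 1 seed, was at 46.7 and 54.6 RPM in bovine and at 496 and 552 RPM in mouse (-3.75, SE 0.29, adjusted p = 0.00174). miR-96-5p, a member of the cluster first known from sensory organs, was at 88.5 and 96.4 RPM against 565 and 994 RPM (-3.46, SE 0.41, adjusted p = 0.00513). In these 3 the groups lay far apart, with the bovine libraries close to each other. miR-146b-3p, the less abundant strand of its hairpin, was at 8.19 and 11.4 RPM in bovine and at 639 and 331 RPM in mouse (-5.99, SE 0.49, adjusted p = 0.00181). miR-181a-1-3p was at 37.3 and 42.3 RPM against a mouse mean of 547 ± 5.86 RPM (SD, n = 2) (-4.15, SE 0.28, adjusted p = 0.00174), and miR-181d-5p at 30.1 and 29.1 RPM against 229 and 193 RPM (-3.20, SE 0.32, adjusted p = 0.00346). These 6 calls held with each library left out, but of the 6 only miR-429-3p reached 100 RPM in both species, and the other 5 passed the filter through mouse, where they were high. miR-187-3p had 175 and 187 RPM in mouse and 0.319 and 2.26 RPM in bovine, where the lower value is the 3-count limit itself, so that its log2 fold change of -7.47 rests on very few reads and went to -6.67 and -9.50 without bovine replicates 1 and 2. miR-10a-5p, from the Hox gene region, was at 469 and 564 RPM in bovine and at 1734 and 3069 RPM in mouse (-2.60, SE 0.44, adjusted p = 0.00972), and this call was lost without either bovine library.

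Identical sequences higher in bovine included miR-135a-5p, miR-186-5p, miR-100-5p, miR-125b-5p, miR-205-5p and let-7a-5p. miR-186-5p, whose hairpin lies in an intron of Zranb2 in mouse (chr3:157544279-157544349, plus strand, GRCm38), was at 7490.5 and 7151 RPM in bovine and at 777 and 1033 RPM in mouse (2.64, SE 0.36, adjusted p = 0.0065). miR-100-5p was at 1531 and 1374 RPM against 225 and 161 RPM (2.55, SE 0.30, adjusted p = 0.00513). miR-135a-5p was at 168 and 147 RPM in bovine and at 0.968 and 2.62 RPM in mouse (6.07, SE 0.69, adjusted p = 0.00513, and 6.99 without mouse replicate 2). The bovine levels lay several-fold above both mouse levels in each case, and these 3 calls held with each library left out, although miR-135a-5p passed the filter through bovine only. miR-205-5p, which marks basal epithelium and myoepithelium in the mouse gland, was at 4096 and 4427 RPM in bovine and at 915 and 626 RPM in mouse (2.10, SE 0.35, adjusted p = 0.00957). let-7a-5p, of the family that restrains proliferation in differentiated cells, was at 60101 and 74007 RPM in bovine and at 24276 and 11038 RPM in mouse (1.57, SE 0.39, adjusted p = 0.0319). miR-26a-5p, encoded within a Ctdsp-family gene, was at 66943 and 72194 RPM against 24422 and 27363 RPM (1.05, SE 0.17, adjusted p = 0.00956). Without mouse replicate 1 the value of let-7a-5p was 2.19. The calls of miR-205-5p and miR-26a-5p were lost without either bovine library and that of let-7a-5p without bovine replicate 2, all with the direction kept.

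For several miRNA the 2 mouse libraries themselves differed, and the size of the difference rested on which was used. miR-125b-5p was at 4504 and 5019 RPM in bovine and at 967 and 276 RPM in mouse (2.58, SE 0.66, adjusted p = 0.0319), with a log2 fold change of 3.70 without mouse replicate 1 and 1.96 without mouse replicate 2. miR-423-5p was at 1771 and 1378 RPM against 196 and 30.9 RPM (3.44, SE 0.91, adjusted p = 0.0351), with 5.26 and 2.67. miR-494-3p was at 136 and 103 RPM against 7.85 and 1.19 RPM (4.36, SE 0.97, adjusted p = 0.022), with 6.22 and 3.59. In each the bovine libraries stayed above both mouse libraries and the call held, although miR-494-3p passed the filter through bovine only. Of the 39 called miRNA, 9 moved by over 1.5-fold with a library left out and 30 did not.

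The 68 pairs that are not identical held the widest differences among abundant miRNA. In the fit over all 159 pairs 85 were called (53.5%), 41 higher (25.8%) and 44 lower (27.7%) in bovine, and 131 (82.4%) had libraries that did not overlap. Of the 68, 17 were higher and 26 lower. Among the 52 with another 3′ end 11 were higher and 22 lower, among the 10 with another 5′ end 4 and 2, and among the 6 with another base 2 and 2. Calls numbered 47 and 46 without bovine replicates 1 and 2 and 126 and 121 without mouse replicates 1 and 2, and 44 of the 85 held in all 4 cases. Both fits called 37 of the identical pairs in the same direction.

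miR-146b-5p, whose family is induced through NF-kB and targets TRAF6 and IRAK1 and whose hairpin lies in an intron of Mfsd13a in mouse (chr19:46342762-46342870, plus strand), was at 369 and 867 RPM in bovine and at 85224 and 101226 RPM in mouse. The means were 618 ± 352 and 93225 ± 11315 RPM (SD, n = 2). The fitted difference, after scaling, was 162-fold (-7.34, SE 0.61, edgeR adjusted p = 0.000776). This call held with each library left out, with -8.32 without bovine replicate 2. Both arms of the miR-146b hairpin were thus lower in bovine, while the paralogue miR-146a-5p, listed in each species with a different base (G18A, mouse base, position from the 5′ end, bovine base), was at 880.0 and 931 RPM in bovine and at 787 and 1331 RPM in mouse, where the libraries overlapped. miR-378a-3p was at 577 and 561 RPM against 14345 and 10762 RPM (-4.57, SE 0.32, adjusted p = 0.000531), and its minor strand miR-378a-5p, identical in both species, was at 40.0 and 39.9 RPM against 442 and 359.6 RPM. miR-378c, which differs from miR-378a by few bases and may share its reads, was at 73.2 and 76.8 RPM against 4942 and 4658 RPM. The bovine libraries were therefore low for every tested strand of miR-146b and miR-378.

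miR-181a-5p, known from lymphocyte development but among the 10 most abundant miRNA of the mouse glands, was at 7124 and 6195 RPM in bovine and at 53482 and 56807 RPM in mouse (-3.16, SE 0.28, adjusted p = 0.000776). miR-200a-3p, which represses the transcription factors ZEB1 and ZEB2, was at 13948 and 13093 RPM against 75449 and 118479 RPM (-2.96, SE 0.35, adjusted p = 0.00168). miR-210-3p, induced by hypoxia, was at 419.7 and 399 RPM against 3471 and 2399 RPM (-2.94, SE 0.33, adjusted p = 0.00132). None of these 3 overlapped between species. miR-29a-3p, which represses collagen messengers, was at 15324 and 13741 RPM in bovine and at 26146 and 37113 RPM in mouse (-1.24, SE 0.31, adjusted p = 0.0171), and its call was lost without either bovine library. miR-34b-5p and miR-34c-5p, targets of p53, were at 2.13 to 4.36 RPM in bovine and at 88.3 to 137 RPM in mouse.

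Non-identical pairs higher in bovine included miR-21, miR-99a, miR-195, miR-92a and miR-150. miR-21-5p, which is abundant in many tissues, was at 44399 and 60064 RPM in bovine and at 5913 and 12815 RPM in mouse (2.36, SE 0.48, adjusted p = 0.00889), with 3.09 without mouse replicate 2. miR-99a-5p, a regulator of mTOR, was at 18288 and 18335 RPM against 3785 and 3869 RPM (2.15, SE 0.27, adjusted p = 0.00177). miR-195a-5p was at 7370.5 and 6572 RPM against 1530.0 and 1143 RPM (2.28, SE 0.30, adjusted p = 0.00207). For all 3 the lowest bovine value was over 3 times the highest mouse value, and the calls held with each library left out. miR-92a-3p, of the miR-17/miR-92 cluster, was at 7862 and 9086 RPM in bovine and at 1983 and 603 RPM in mouse (2.63, SE 0.58, adjusted p = 0.011), with 3.66 and 2.04 without mouse replicates 1 and 2. miR-224-5p, encoded in an intron of Gabre (chrX:72261031-72261112, minus strand), was at 252 and 284 RPM against 11.9 and 14.3 RPM (4.24, SE 0.40, adjusted p = 0.000856), and passed the filter through bovine only.

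The pair of mouse miR-16-5p shows how listing bears on a result. Paired with bovine miR-16b, which is the same stretch shorter by a base, it was lower in bovine, at 5908 and 5968 RPM against 14407 and 10996 RPM (-1.20, SE 0.28, adjusted p = 0.0124, lost without either bovine library).
miR-16-5p, mouse: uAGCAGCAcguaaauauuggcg
miR-16b-5p, bovine: uAGCAGCAcguaaauauuggc
miR-16a-5p, bovine: uAGCAGCAcguaaauauuggug
Bovine miR-16a-5p, which differs by C21T and stayed unpaired because mouse miR-16-5p shares the longer stretch with miR-16b, was at 25514 and 26865 RPM. With both bovine forms summed the levels were 31422 and 32832 RPM, above mouse, with a log2 ratio of the mean RPM of 1.34, so the direction turned with the way of matching.

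Several of the most abundant miRNA lay close in both species. Of 20 pairs with a mean of 10000 RPM or more in both species, 7 were called, against 53.5% of all 159 pairs. Taking pairs high in both species itself limits how far they can differ, so this lower share is in part fixed by the choice. In at least 1 species 32 pairs reached this level. Ranked among the pairs only, 3 miRNA stood in the 10 most abundant of both species, namely miR-148a-3p, miR-143-3p and miR-26a-5p. miR-143-3p, of smooth muscle and stroma, was at 63041 and 48791 RPM in bovine and at 49139 and 63991 RPM in mouse (-0.13, SE 0.30, adjusted p = 0.704). miR-22-3p was at 24992 and 20532 RPM against 26241 and 19115 RPM (-0.10, SE 0.28, adjusted p = 0.768), and let-7f-5p at 18994 and 22440.4 RPM against 24076 and 14592 RPM (0.01, SE 0.33, adjusted p = 0.986). In all 3 the libraries of the species overlapped. miR-148a-3p, a repressor of DNMT1 and the most abundant miRNA of the bovine glands, was at 73702 and 74936 RPM in bovine and at 87788 and 85989.7 RPM in mouse. It was called among the identical sequences (-0.60, SE 0.12, adjusted p = 0.015) and not among all pairs (-0.33, SE 0.25, adjusted p = 0.292), and the first call was lost without either bovine library. miR-126-3p, the endothelial miRNA whose hairpin overlaps an exon annotation of Egfl7 (chr2:26591357-26591429, plus strand), was at 38701 and 30592 RPM in bovine and at 16269.7 and 20468 RPM in mouse without passing the test (0.80, SE 0.29, adjusted p = 0.0626).

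Beside these, 7 miRNA entered the 10 most abundant pairs in bovine only. In mouse only, miR-200a-3p (96964 ± 30426 RPM, SD, n = 2), miR-146b-5p, miR-181a-5p, miR-141-3p, miR-29a-3p, miR-200b-3p and let-7g-5p did so. The bovine set was let-7a-5p, miR-21-5p, let-7b-5p, miR-126-3p, miR-23a-3p, miR-200c-3p and miR-126-5p. Unpaired bovine miR-16a-5p was not ranked, although its mean of 26189 RPM lay above that of miR-126-5p, 24518 RPM. Of the bovine set let-7b-5p was at 36362 and 38815 RPM in bovine and at 13972 and 3377 RPM in mouse, where the mouse libraries differed over 4-fold (2.04, SE 0.64, adjusted p = 0.0374, with 3.33 and 1.37 without mouse replicates 1 and 2). Among the identical sequences it was not called (1.76, SE 0.66, adjusted p = 0.0848). The 10 largest entries of each single library were also summed, ranked within that library over all listed miRNA, paired or not. They took 46.2% and 48.7% of the reads in bovine and 49.5% and 58.1% in mouse.

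Seeds were summed over every listed sequence, and 115 of 158 were called (72.8%), 61 higher (38.6%) and 54 lower (34.2%) in bovine. Of the 158, 27 were listed in only 1 species (15 bovine and 12 mouse) and all 27 were called, while among the 131 seeds of both species 88 were called, 46 higher and 42 lower. The 3 most abundant of the 27 belonged to miRNA of both species whose listed 5′ ends differ. The seed GUACCG held bovine miR-126-3p at 38701 and 30592 RPM and was listed at 0 in mouse, while CGUACC held mouse miR-126a-3p at 16269.7 and 20468 RPM and was listed at 0 in bovine. The seed UAGCAC likewise held bovine miR-29a-3p, and UUUGUU held bovine miR-375-3p. With the bovine seed read from the mouse 5′ end wherever a stretch was shared, 91 of 150 seeds were called (60.7%), 48 higher (32.0%) and 43 lower (28.7%), and miR-126-3p and miR-375-3p, at 1754 and 2198 RPM in bovine and at 2596 and 1065 RPM in mouse, were no longer called. Family values below use these aligned seeds.

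**Figure D2:**
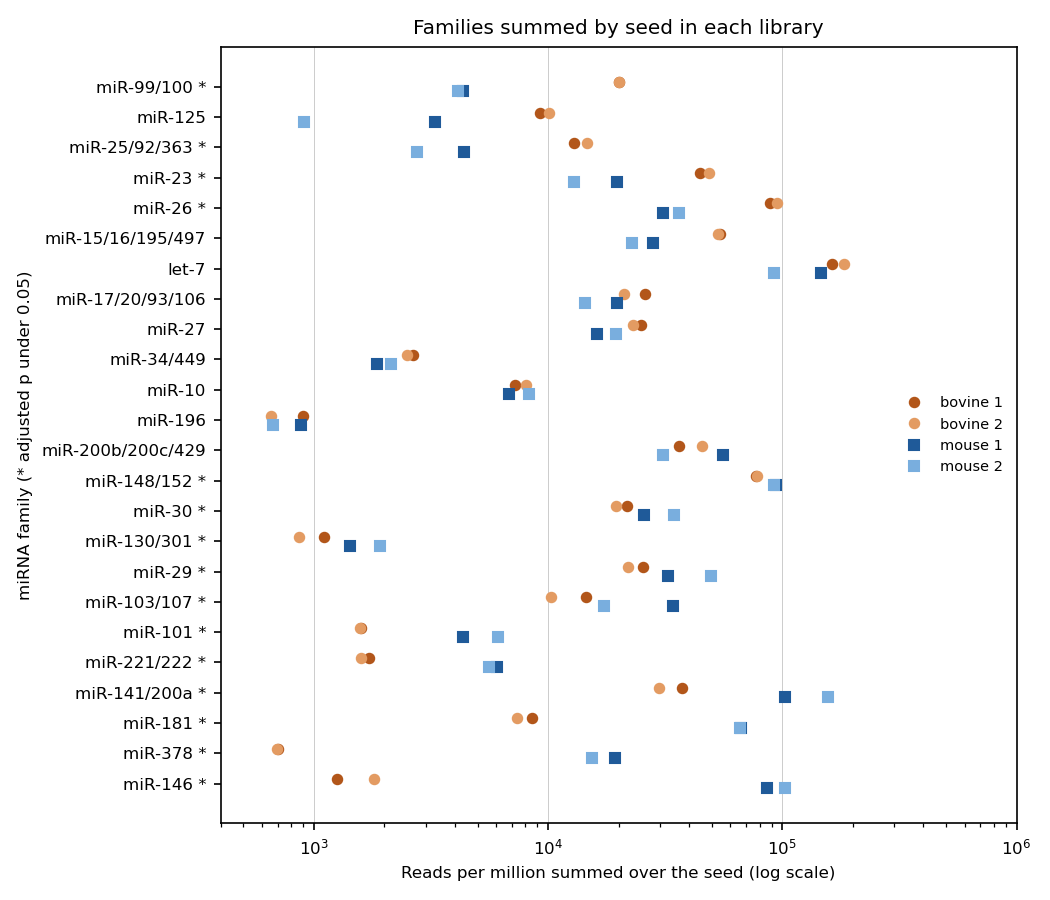
RPM summed over the seed (x, log scale) of 24 miRNA families in each of the 4 libraries, with bovine circles and mouse squares, ordered by the ratio of the species means, an asterisk marking an adjusted p under 0.05. The miR-146, miR-378 and miR-181 families lie far to the left in bovine, the miR-99/miR-100 family to the right, and let-7, miR-10 and the miR-196 seed, which holds other sequences too, close together.

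Of the 24 families fixed for this purpose, 15 were called by the aligned seed, 11 lower and 4 higher in bovine. Of all 150 aligned seeds 60.7% were called, 28.7% lower and 32.0% higher. The miR-146 family summed to 1249 and 1798 RPM in bovine and to 86013 and 102561 RPM in mouse (-6.63, SE 0.36, adjusted p = 0.00149). The miR-378 family, linked to energy metabolism, summed to 700.3 and 697 RPM against 19288 and 15419.8 RPM (-5.29, SE 0.21, adjusted p = 0.00111). The miR-181 family summed to 8567 and 7367 RPM against 66689 and 65894 RPM (-3.72, SE 0.20, adjusted p = 0.00149), and all 4 of its members were lower. In these families every bovine library lay more than 7 times below every mouse library. The miR-141/miR-200a seed summed to 37279 and 29679 RPM in bovine and to 103072 and 157189.6 RPM in mouse (-2.64, SE 0.37, adjusted p = 0.00749). The miR-200b/miR-200c/miR-429 seed, which differs from it by a base, summed to 36231 and 45352 RPM against 55817 and 30930.4 RPM and was not called (-0.73, SE 0.31, adjusted p = 0.11). The miR-221/miR-222 family, repressors of p27 and KIT, was lower in bovine at 1721 and 1583 RPM against 6076 and 5587 RPM (-2.48, SE 0.20, adjusted p = 0.00189).

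The scaling mattered more for seeds than for single miRNA. With library totals in place of TMM, which assumes that most features do not differ, the median log2 fold change over all seeds moved from -0.03 to 0.65. The miR-101 seed (-2.40, SE 0.32, adjusted p = 0.00689) and the miR-29 family (-1.47, SE 0.34, adjusted p = 0.0279, against -2.83 with seeds as listed) were lower. The miR-101 seed also holds miR-144-3p, at 1105 and 1035 RPM in mouse and itself called lower. The only tested miR-101 pair was not called (-0.91). With seeds as listed both seeds were also called lower with library totals, but there the miR-29 seed leaves out bovine miR-29a-3p. With aligned seeds the miR-29 family had a log2 ratio of the mean RPM of -0.78, and no aligned fit was made with library totals. The calls of the miR-148/miR-152 (-0.93), miR-30 (-1.22), miR-103/miR-107 (-1.68) and miR-130/miR-301 (-1.44) families were lower under TMM, and as listed they were lost with library totals, at -0.27, -0.55, -1.05 and -0.76, with the sign kept. Families higher in bovine were miR-99/miR-100, at 20159 and 20039 RPM against 4324 and 4132 RPM (1.59, SE 0.17, adjusted p = 0.00397), miR-25/miR-92/miR-363 (1.31, SE 0.26, adjusted p = 0.0193), miR-23 (0.87, SE 0.23, adjusted p = 0.0372) and miR-26 (0.78, SE 0.21, adjusted p = 0.042). As listed, the miR-25/miR-92/miR-363, miR-23, miR-26, miR-148/miR-152, miR-30 and miR-130/miR-301 calls were lost without either bovine library and the miR-103/miR-107 call without bovine replicate 2, with -1.10 without mouse replicate 1.

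Among the families that were not called, let-7, the most abundant, summed to 163308 and 183040.1 RPM in bovine and to 145852 and 92342 RPM in mouse. Its fitted log2 fold change was -0.11 (SE 0.23, adjusted p = 0.698) while the log2 ratio of the mean RPM was 0.54, so the fitted direction turned with the scaling, while both bovine sums lay above both mouse sums. Its 9 members moved in different directions, with let-7a and, in the fit over 159 pairs only, let-7b higher, let-7d and let-7i lower and 5 not called. The miR-15/miR-16/miR-195/miR-497 family, regulators of the cell cycle, summed to 54149 and 52908 RPM against 28167 and 22836 RPM (0.41, SE 0.16, adjusted p = 0.086). The miR-125 family was at 9274 and 10090.2 RPM against 3289.9 and 905 RPM (1.59, SE 0.65, adjusted p = 0.102), with mouse libraries over 3-fold apart. The miR-10 family was at 7251 and 8045 RPM against 6801 and 8267 RPM, and the species overlapped. The miR-196 seed was at 895 and 653 RPM against 882 and 666 RPM, also with overlap, but it holds other sequences too. Its 2 miR-196 strands alone summed to 420 and 400 RPM in bovine and to 225 and 289 RPM in mouse. Both strands lay higher in both bovine libraries, and neither was called. Of 22 families with at least 2 tested members, 3 had every member lower, 3 every member higher, 3 calls in both directions and 3 none. In the fit over 159 pairs 13 of the 70 different tested members of all listed families were higher and 26 lower, against 25.8% and 27.7% of all pairs.

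**Figure D3:**
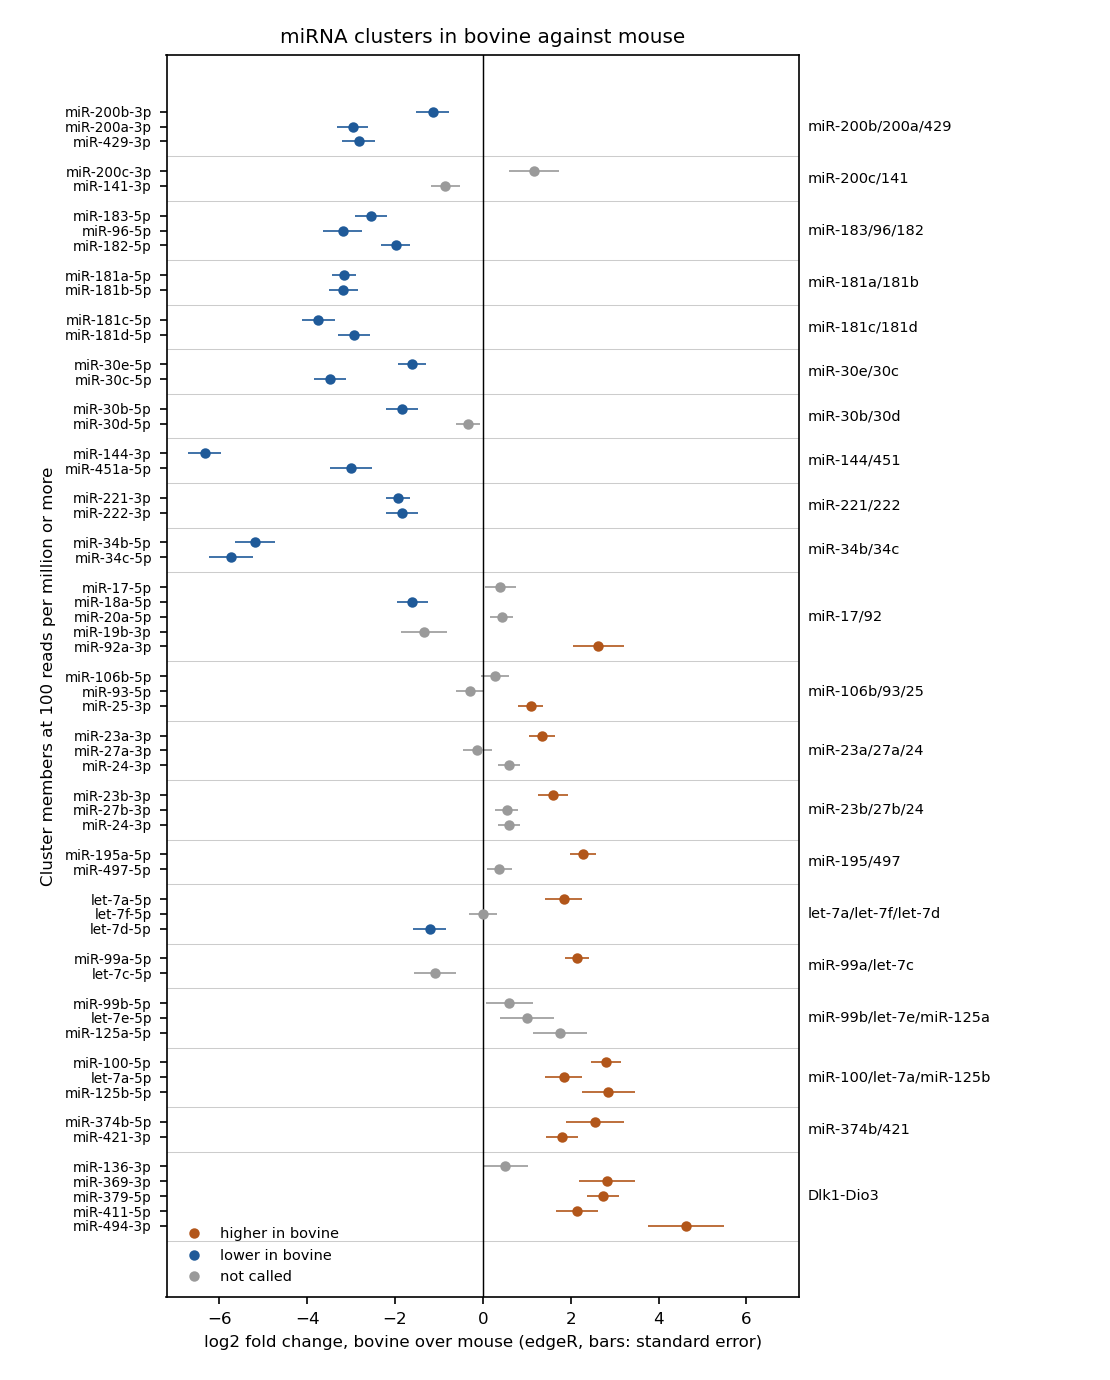
Fitted log2 fold change of bovine over mouse (x) of the members of 21 genomic clusters that reached 100 RPM, coloured by call, with bars of 1 SE, from the fit over 159 pairs. The miR-200b/miR-200a/miR-429, miR-183/miR-96/miR-182, miR-181, miR-144/miR-451 and miR-34b/miR-34c members lie left of 0, the miR-100/let-7a/miR-125b, miR-374b/miR-421 and most Dlk1-Dio3 members right of it, and the miR-17/miR-92 members on both sides.

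Clusters were read in the fit over 159 pairs, whose median log2 fold change was 0.12. Of 32 clusters with at least 2 tested members, 8 had every member lower in bovine, 2 every member higher, 2 calls in both directions and 5 no call. Over the 77 different tested members of all listed clusters 18 were higher and 24 lower, against 25.8% and 27.7% of all pairs. A mature strand made from several loci counts in each of its clusters. The 2 clusters of the miR-200 family differed from each other. In miR-200b/miR-200a/miR-429, on mouse chromosome 4 (miR-200a at chr4:156054896-156054985, minus strand, in an intron of Ttll10), all 3 members were lower, with miR-200b-3p at 10800.3 and 14429 RPM in bovine and at 33569 and 18791 RPM in mouse (-1.14, SE 0.37, adjusted p = 0.0409, lost without either bovine library). In miR-200c/miR-141, on mouse chromosome 6 (miR-200c at chr6:124718322-124718390, minus strand), neither member was called. There miR-200c-3p was at 24588 and 30029 RPM in bovine and at 17888 and 5127 RPM in mouse (1.17, SE 0.57, adjusted p = 0.129), and miR-141-3p at 23331 and 16586 RPM against 27622 and 38711 RPM (-0.85, SE 0.33, adjusted p = 0.0731, but called lower among the identical sequences). The difference between the 2 clusters was not tested.

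All 3 members of miR-183/miR-96/miR-182 (miR-183 at chr6:30169668-30169737, minus strand) were lower in bovine, with miR-183-5p at 114 and 157 RPM against 822 and 658 RPM (-2.54, SE 0.36, adjusted p = 0.00255) and miR-182-5p at 530.4 and 519 RPM against 2302 and 1560.1 RPM (-1.98, SE 0.33, adjusted p = 0.00458). Without bovine replicate 1 the first call was lost, and without either bovine library the second. The miR-181c/miR-181d, miR-181a/miR-181b, miR-30e/miR-30c, miR-221/miR-222, miR-34b/miR-34c and miR-144/miR-451 clusters were likewise lower in every tested member. In these and miR-183/miR-96/miR-182 the strands miR-96-5p, miR-181c-5p, miR-181d-5p, miR-30c-5p, miR-34b-5p, miR-34c-5p and miR-144-3p reached 100 RPM in mouse only. Of these miR-30e-5p, in an intron of Nfyc (chr4:120772606-120772697, minus strand), was at 2222 and 1820.1 RPM in bovine and at 4863 and 6463 RPM in mouse (-1.60, SE 0.32, adjusted p = 0.0086, lost without either bovine library).

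Higher in every tested member were miR-100/let-7a/miR-125b, a cluster conserved across animals, and miR-374b/miR-421, in an intron of Ftx on the mouse X chromosome. miR-374b-5p was at 1136 and 1689 RPM in bovine and at 361 and 96.5 RPM in mouse (2.55, SE 0.66, adjusted p = 0.0186), with 3.73 and 1.91 without mouse replicates 1 and 2 and the call lost without bovine replicate 2. In the related miR-99a/let-7c cluster only miR-99a-5p was called, while let-7c-5p was at 8666 and 10610.4 RPM in bovine and at 28123 and 10442 RPM in mouse. In miR-99b/let-7e/miR-125a no member was called, although all 3 lay higher in both bovine than in both mouse libraries.

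Some clusters split. let-7a-5p, a single sequence made from several loci, also stands in let-7a/let-7f/let-7d, where let-7d-5p was lower and let-7f-5p not called. In miR-17/miR-92, the cluster of proliferation on mouse chromosome 14, miR-92a-3p was higher and miR-18a-5p lower in bovine (834 and 623 RPM against 1701 and 2386 RPM, -1.61, SE 0.36, adjusted p = 0.011), the latter call lost without either bovine library, and miR-17-5p, miR-20a-5p and miR-19b-3p were not called. In both miR-23/miR-27/miR-24 clusters miR-23 alone was called, with miR-23a-3p at 28027 and 30996 RPM in bovine and at 12743 and 8868 RPM in mouse (1.35, SE 0.29, adjusted p = 0.0109), whereas miR-27a-3p was at 7589 and 6851 RPM against 5871 and 8613 RPM (-0.12, SE 0.32, adjusted p = 0.751). The miR-23a and miR-23b calls were lost without either bovine library. In miR-195/miR-497 the first member was called and miR-497-5p was not, at 5896 and 4804 RPM against 3524 and 4111 RPM (0.37, SE 0.29, adjusted p = 0.303). Whether members of 1 cluster differed from each other was not tested.

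The imprinted Dlk1-Dio3 region, expressed from the maternal chromosome and best known from placenta, embryo and brain, stood at low levels. Of its 35 members on the list, 25 were paired, 20 of these stayed under 100 RPM in every library and 5 were tested, of which 4 were higher in bovine, 0 lower and 1 not called. All of the 5 but miR-411-5p reached 100 RPM in bovine only, so that the filter bore on this direction. Of the 25 paired members 19 lay higher in both bovine libraries and 3 lower, against 73 and 58 of the 159 pairs at 100 RPM or more. As 20 of the 25 stayed under 100 RPM, where no test was made and no count over all pairs is given, the 2 sets are not alike. miR-411-5p, the most abundant, was at 614 and 528 RPM in bovine and at 76.5 and 161 RPM in mouse (2.14, SE 0.47, adjusted p = 0.011), with 2.84 without mouse replicate 2 and the call lost without either bovine library. miR-379-5p was at 178 and 159.5 RPM against 25.7 and 21.3 RPM (2.74, SE 0.37, adjusted p = 0.00228). Summed over all members of the list, paired or matched by name, the region took 2050 and 1671 RPM in bovine and 401 and 615 RPM in mouse.

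Values of miRNA that mark cell types are given with their calls in the fit over 159 pairs, where 25.8% of all pairs were higher and 27.7% lower, and their part in the differences was not tested. Fewer cells of a type and less miRNA per cell cannot be told apart in these tissues. Of 12 epithelial markers 11 were tested, of which miR-205-5p was higher and 6 were lower in bovine, and the sum over the list was 80854 and 83045 RPM against 168379 and 194607 RPM. Without miR-200a-3p the sum was 66906 and 69953 RPM against 92930.0 and 76128 RPM. The erythroid markers miR-451a (-2.997, and -2.39 without mouse replicate 1) and miR-144-3p were lower in bovine, at 1439.8 and 854 RPM against 11706 and 5397 RPM and at 14.3 RPM in both libraries against 1105 and 1035 RPM, and the 3 markers summed to 1709 and 1098 RPM against 13343 and 6504 RPM. The 2 endothelial strands were not called and summed to 62356 and 55972 RPM against 24194 and 34265 RPM. Of 5 tested markers of smooth muscle and fibroblasts miR-145a-5p was higher. The sum over all 6 on the list, with the untested miR-199b-5p, was 80524 and 65790 RPM against 54524 and 71361 RPM. Of 4 tested leukocyte markers miR-150-5p, of mature lymphocytes, was higher (1347 and 2007 RPM against 250.1 and 260.3 RPM) and miR-223-3p, of myeloid cells, lower (104 and 89.2 RPM against a mouse mean of 250.1 ± 51.2 RPM, SD, n = 2). Striated muscle miR-1a-3p was at 713 and 768 RPM in bovine and at 159 and 207 RPM in mouse, and 2 markers of liver and brain summed to at most 4.36 RPM in bovine and to 24.6 and 59.9 RPM in mouse.

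**Figure D4:**
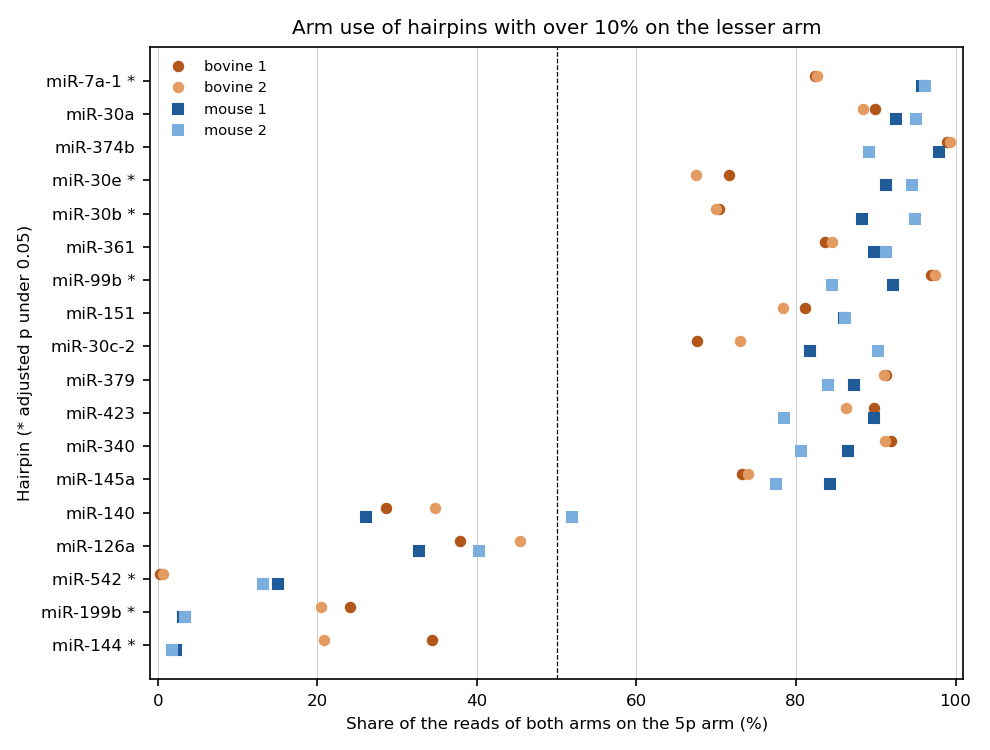
Percentage of the reads of both arms that lie on the 5p arm (x, from 0 to 100%) in each of the 4 libraries, for the 18 hairpins with over 10% on the lesser arm in at least 1 library, with the dashed line at equal use. Asterisks mark an adjusted p under 0.05. miR-30e and miR-30b lie near 70% in bovine and near or above 90% in mouse, whereas miR-126a overlaps between species.

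The main arm was the same in all 4 libraries for 86 of the 87 hairpins, 5p in 51 and 3p in 35, and in 0 hairpins did the species use opposite arms. The exception was miR-140, in an exon of Wwp2 (chr8:107551244-107551313, plus strand), with 28.6% and 34.8% on 5p in bovine and 26.1% and 51.9% in mouse, where the mouse libraries themselves disagreed. The ratio of 5p to 3p reads was called different for 28 hairpins (32.2%), 17 with more 5p (19.5%) and 11 with more 3p (12.6%) in bovine, and not called for 59. Calls numbered 17 and 14 without bovine replicates 1 and 2 and 36 and 25 without mouse replicates 1 and 2, and 10 held in all 4 cases. Of the 28 called hairpins 12 had under 1% on the lesser arm in every library, where a difference is one between traces.

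In the miR-30 family 2 of the 4 hairpins described here were called. miR-30e had 71.6% and 67.4% on 5p in bovine and 91.3% and 94.6% in mouse (log2 difference of the arm ratio -2.57, SE 0.44, limma adjusted p = 0.0117), and this call held with each library left out. miR-30b had 70.3% and 70.0% against 88.3% and 95.0% (-2.34, SE 0.61, limma adjusted p = 0.0366), with -3.005 and -1.67 without mouse replicates 1 and 2, and the call was lost without mouse replicate 2 and without either bovine library. miR-30c-2 had 67.6% and 73.0% against 81.7% and 90.3% and miR-30a 89.9% and 88.4% against 92.5% and 95.0%, and neither was called. In all 4 hairpins both bovine libraries used more 3p than both mouse libraries. The 5p strand of miR-30c-2, miR-30c-5p, also counts in the miR-30e/miR-30c cluster, so its arm share cannot be assigned to 1 hairpin.

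miR-144, whose 3p strand is the erythroid miRNA, had 34.3% and 20.8% on 5p in bovine and 2.31% and 1.78% in mouse (4.17, SE 0.64, limma adjusted p = 0.0117), at a bovine level of 21.7 and 18.1 RPM for both arms. miR-193a had 99.9% on 5p in both bovine libraries and 97.0% and 90.7% in mouse (5.75, SE 0.72, limma adjusted p = 0.00695), with 6.62 and 4.88 without mouse replicates 1 and 2. miR-542 had 0.235% and 0.639% on 5p in bovine and 15.1% and 13.2% in mouse (-5.20, SE 0.85, limma adjusted p = 0.0117), at 44.1 to 103 RPM for both arms, with -4.59 and -5.81 without bovine replicates 1 and 2. These calls held with each library left out, although the lesser arm rested on as few as 2 counts for miR-542. The miR-199b hairpin had 24.1% and 20.5% on 5p in bovine and 3.19% and 3.39% in mouse, but its 3p strand is shared with both miR-199a hairpins, so that its arms cannot be told apart from theirs. miR-148a had over 99% on 3p and let-7g over 99% on 5p in all 4 libraries. miR-126a, with both arms abundant, had 37.9% and 45.3% on 5p in bovine and 32.8% and 40.3% in mouse and was not called (0.31, SE 0.42, limma adjusted p = 0.574).

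Few abundant miRNA were left without a partner. In each species 41 miRNA at 1000 RPM or more had no identical sequence in the other table, of which 35 in bovine and 38 in mouse were paired by a shared stretch, leaving 6 and 3. The next set shows those with a sequence that differs in the middle, or known from cattle, beside their mouse counterpart where there is one.
miR-151-3p, mouse: cUAGACUGaggcuccuugagg
miR-151-3p, bovine: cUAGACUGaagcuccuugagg
miR-199b-5p, mouse: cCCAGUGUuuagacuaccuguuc
miR-199b-5p, bovine: cCCAGUGUuuagacuaucuguuc
miR-2284x-5p, bovine: uGAAAAGUucguucggguuuu
miR-1468-5p, bovine: cUCCGUUUgccuguuuugcuga
miR-151-3p differed by G10A, outside the seed, and was at 1745 and 1773 RPM in bovine and at 438 and 224 RPM in mouse. miR-199b-5p differed by C17T and was at 2483 and 2098 RPM against 81.0 and 176 RPM. miR-193a-5p differed by A16G and was at 1145 and 795 RPM against 127 and 82.1 RPM. In these 3 the seed was the same in both species and both bovine libraries lay above both mouse libraries. Of the others, miR-2284x-5p, from a family known from ruminants, was at 1894 and 2030 RPM in bovine and miR-1468-5p at 1681 and 1747 RPM, and neither had a partner in the mouse table used here. In mouse, miR-101b-3p was at 2387 and 3470 RPM and miR-203-3p, a marker of differentiated epithelium, at 1753 and 1157 RPM, without a partner by stretch in the bovine table used here. All unpaired sequences together took 4.74% and 4.69% of the reads in bovine and 1.29% and 1.24% in mouse, and predicted miRNA 0.283% and 0.261% against 0.128% and 0.100%.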

How the data were processed

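Reads trimmed of the poly(A) tail and 17 to 28 nt long were counted by the authors with miRDeep2 against precursors of miRBase release 20 and precursors they predicted, on builds GRCm38 and UMD3.1. The deposited values are raw counts of reads per mature miRNA, and a column of normalised counts was not used. Terminal A bases of a miRNA cannot be told from the tail, and near-identical miRNA may share reads. RPM were computed over library totals. Counts were tested with edgeR 4.0.16 (TMM, quasi-likelihood F test) in R 4.3.3 and arm ratios, log2 of counts plus 0.5, with limma 3.58.1, and DESeq2 1.42.0 was an alternative. The procedure was tested on simulated data. Lines of 1 species with the same sequence were counted once. Named miRNA were the members of the family, cluster and marker lists, the most abundant, the largest called differences, the closest abundant pairs, called hairpins and unmatched miRNA. Members and lists were chosen with earlier results of these data known. Mouse hairpin positions came from RefSeq (GRCm38) with GENCODE annotation, for 196 of 225 strand and hairpin entries. No bovine genome was used here. Bovine replicate numbers follow the order of the records and pair nothing with mouse.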

Additional observations from a re-analysis of the deposited data

How the results depend on the processing

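Counts of calls among identical sequences were 39 as reported, 96 without a filter on abundance, 87 matched by name and 85 matched by a shared stretch, and 16 to 64 with 1 library left out. The other tools, scalings and filters gave 37 to 51. The sets tested differ in size, so a higher count need not be a higher share. The 39 were of 91 sequences (42.9%) and the 85 of 159 pairs (53.5%). The 96 were drawn from 208 identical sequences at any level. Matches by name or by a shared stretch need not be identical. For seeds the 115 were of 158, and the number tested without a filter is not given. Among the identical sequences with library totals alone, 26 were higher and 17 lower in place of 19 and 20, and the median log2 fold change moved from 0.10 to 0.47. Seeds numbered 115 as reported, 580 without a filter, 84 to 133 with 1 library left out, and 68 higher and 44 lower with library totals in place of 61 and 54. Arm calls numbered 28, 9 of 20 hairpins with both arms identical, and 14 to 36 with 1 library left out. The difference of the shared reads between species was 14.1 percentage points and turned to -3.45 by shared stretch. Alternatives for the fit over 159 pairs were added after the data were seen and gave 84 to 95 calls by tool or scaling and 46 to 126 with 1 library left out. Values that turned sign across a call were miR-375-3p, -0.45 without mouse replicate 2 and 0.74 without mouse replicate 1, the seeds AUGACA (miR-425-5p), CGUACC (miR-126a-3p), AGUAGA (miR-411-5p) and UUCCUG, 0.20, 0.24, 1.57 and 1.58 with the aligned 5′ end, the last of which was then called higher, and the arm ratio of miR-222, 0.095 with 5 counts added. The cause was not tested. Precision is limited by 2 libraries per species and by the mouse spread. No paired analysis was possible because bovine and mouse animals are unrelated and the numbers come from the order of the records.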
